A study of Homo sapiens with 4 samples.

Results

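In most genes the 500 nt before the annotated 3′ end hold far more nuclear RNA than the 500 nt after it. In 428 genes of A549 cells the order was the other way round without irradiation, and these genes are described here. They are the protein-coding rows of the deposited table (RefSeq mRNA entries) with a gene length over 4000 and up to 150000 nt in which the mean downstream value of both unirradiated libraries exceeded the mean upstream value. They made up 13.7% of the 3129 rows of that kind and length, in a table of 4208 genes. A549 is a human lung tumor cell line. The cells were irradiated with UV-C light (254 nm, 40 J/m2) and left for 16 h (UV+), or were not irradiated (UV−), with 2 biological replicates of nuclear, ribosomal RNA-depleted RNA in each condition. Both conditions used the same unmodified cell line, so the results speak for this 1 line, 1 dose and 1 recovery time. Each value is the number of reads in a window divided by one size factor per library.

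Transcripts of protein-coding genes end when a multiprotein complex recognizes the polyadenylation signal (PAS), most often the hexamer AATAAA in the DNA, cleaves the RNA a short distance after it and adds a poly(A) tail. RNA beyond the cleavage site is normally degraded quickly, so that reads past a gene's end can come from uncleaved transcripts, from a longer 3′ untranslated region (3′ UTR) that uses a later PAS, from a neighboring gene, or from an annotated end that is not the one these cells use. Many genes have several such sites in tandem, a pattern called alternative polyadenylation, and UV is known to inhibit cleavage at many PAS.

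The ends that these genes have in the annotation show which of these cases can be separated by sequence. Below are the last 30 nt before the gene end used by the table and, for genes with a longer annotated 3′ end, the last 30 nt before that later end (GRCh37, the same build as hg19, GENCODE 44). Letters run 5′ to 3′ on the strand of the gene, with AATAAA in capitals, or ATTAAA, the next most frequent variant, where AATAAA is absent. The first 3 genes have neither hexamer in the last 30 nt of the table's end and have one at the later end. The next 3 have one at both ends, and the last 5 have no longer annotated end.
ASXL2, gene end of the table, chr2:25962253-25962282, minus strand: cattcatcttaaaagctgaacagaaaaatt
ASXL2, longer annotated end, chr2:25956622-25956651, minus strand: tgttgAATAAAggcatacagttttacccta
MMACHC, gene end of the table, chr1:45976710-45976739, plus strand: agactcatcaaggtctcagttcaagtttaa
MMACHC, longer annotated end, chr1:45979025-45979054, plus strand: atactttgAATAAAaagcctttatattctc
ZNF134, gene end of the table, chr19:58133607-58133636, plus strand: ttgcagcatgtgtcccatgttccccaacac
ZNF134, longer annotated end, chr19:58136063-58136092, plus strand: tcacAATAAAagctgcttgcctttgcttca
RPS27L, gene end of the table, chr15:63445539-63445568, minus strand: aATTAAAaagaatagtttcaaaaaaataca
RPS27L, longer annotated end, chr15:63440448-63440477, minus strand: atcAATAAAattgcatgccattaaatatga
HNRNPA1, gene end of the table, chr12:54679001-54679030, plus strand: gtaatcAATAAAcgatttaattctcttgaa
HNRNPA1, longer annotated end, chr12:54680842-54680871, plus strand: ttttttttttAATAAActgtatttaactta
ERGIC2, gene end of the table, chr12:29493579-29493608, minus strand: acattgttAATAAAaaaaaaaaacgggcta
ERGIC2, longer annotated end, chr12:29490285-29490314, minus strand: tttggactcAATAAAtgacaaattatgaaa
DVL2, gene end of the table, chr17:7128661-7128690, minus strand: aacaccaAATAAAgcaatagaggcaaactc
AIMP2, gene end of the table, chr7:6063436-6063465, plus strand: caagtgtcAATAAAagcatcatgtaattta
CHCHD2, gene end of the table, chr7:56169266-56169295, minus strand: gttaattagAATAAAgtcattttcttccaa
CAPRIN1, gene end of the table, chr11:34124128-34124157, plus strand: aattacactagATTAAAtaatatgaaagtc
HORMAD1, gene end of the table, chr1:150670535-150670564, minus strand: agcataAATAAAatattgttcagtacgtag

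Over all members, the last 50 nt before the table's gene end held AATAAA in 46.7%, ATTAAA without AATAAA in 15% and neither in 38.3%. Of the 2701 other genes of the same kind and length, 63.1% held AATAAA, 16% ATTAAA and 21% neither, and over all genes of the table with a position the shares were 58%, 14.7% and 27.2%. The hexamers were searched on the gene's own strand, and a match is a string of letters and not a known site of cleavage. An annotated transcript of the gene ended within 10 nt of the table's end in 61.7% of the members, against 79.5% of the other genes. These shares describe the place where the table divides each gene and were not tested, since the genes were chosen by their reads.

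The 4 libraries differed in depth. The windows of all genes held 92566 and 76473 downstream reads in UV+ replicates 1 and 2, and 50814 and 81339 in UV− replicates 1 and 2, with size factors of 1.22975 and 1.03376 in UV+, and 0.718608 and 1.21905 in UV−. The members held 15167 and 13206 downstream and 9528 and 7694 upstream reads in UV+, against 10548 and 15735 downstream and 5912 and 10226 upstream in UV−. A typical member was thinly covered, with a median of 17 and 15 downstream reads in UV+ and 13 and 20 in UV−, while the upstream median was 11 and 9 in UV+ and 7 and 12 in UV−. Of 8 markers of this line or of epithelial cells, 4 had a row (AKR1B10, AKR1C1, ALDH1A1 and KRT18), with upstream means of up to 7331 in UV+ and 6014 in UV−. Of 8 markers of blood, endothelial, fibroblast or liver cells, 0 had one.

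Only UV− values chose the members, and a share of them lay near the dividing line. The downstream value exceeded the upstream one in each UV− library in 259 of the 428 and in only 1 UV− library in 169. The UV− mean downstream was at least 2 times the upstream mean in 122. The members just inside were POLK, a translesion DNA polymerase, with means of 18.60 downstream and 18.57 upstream in UV−, ERP44 (18.48 and 18.39) and PNISR (31.50 and 31.32). Just outside, with equal means in both windows, stood SURF1 (3.32), SNX33 (7.71) and PFN4 (2.91). In 74 members the upstream window held under 10 reads in UV−, so that they were in the table only through their upstream reads in UV+, and 6 of these had an upstream count of 0 in both UV− libraries. Both windows reached 10 reads, summed over the libraries of a condition, in both conditions in 255 members, in UV− alone in 99 and in UV+ alone in 67, while in 7 each window did so in a different condition.

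The UV+ libraries, which had no part in the choice, showed how much of the pattern was found again. Of the RNA that members had in both windows, 61.4% and 63.2% lay downstream in UV+ replicates 1 and 2, against 64.1% and 60.6% in UV− replicates 1 and 2. In the other genes of that length it was 14.5% and 14% in UV+, against 12.6% and 12% in UV−. The median member had 13.9 normalized reads downstream and 8.75 upstream in UV+, against 16.8 downstream and 9.75 upstream in UV−. Downstream exceeded upstream in both UV+ libraries in 228 members (53.3%), beside 13.4% of all 4208 genes and 5.92% of the other genes of that length. It did so in neither UV+ library in 69 members, and in all 4 libraries in 158. By depth, it did so in 57% of the 207 members with a mean of at least 10 in each window and in 49.8% of the 221 below that.

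**Figure D1:**
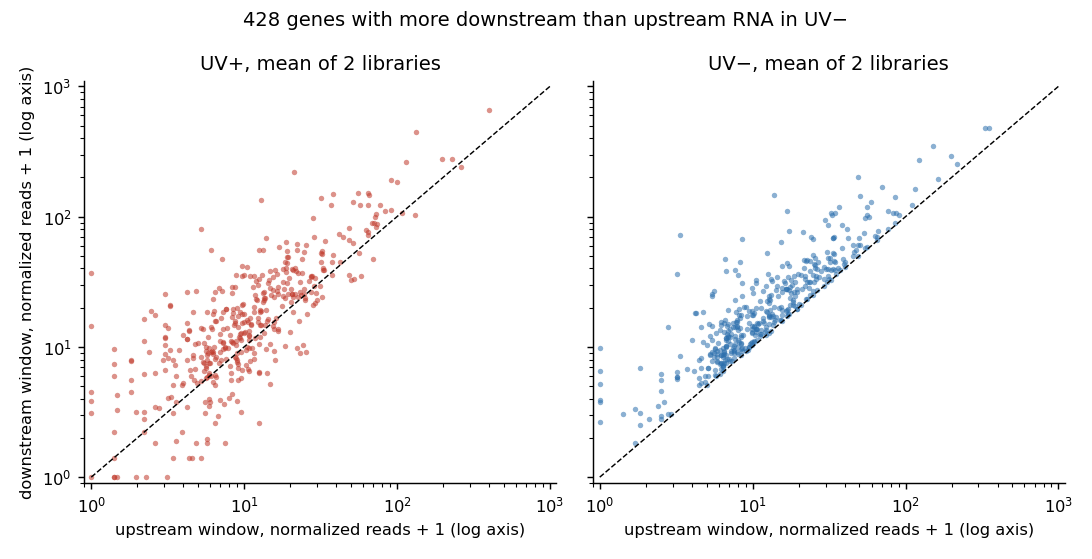
Mean normalized reads plus 1 in the downstream window (vertical log axis) against the upstream window (horizontal log axis) for the 428 members, UV+ on the left and UV− on the right, with a dashed line where both windows are equal. All points lie above the line in UV−, as the choice requires, while those of UV+ scatter on both sides of it, most of them above.

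The UV− library that did no choosing showed lower ratios than the one that did. Choosing genes by UV− replicate 1 alone gave 459 genes with median log2 downstream/upstream ratios of 0.43 and 0.54 in UV+ replicates 1 and 2, against 0.19 in UV− replicate 2 and 0.73 in the choosing library. Choosing by UV− replicate 2 alone gave 424 genes with medians of 0.40 and 0.49 in UV+, against 0.37 in UV− replicate 1 and 0.62 in the choosing library. The UV+ mean lay above the UV− library that did not choose by a median of 0.24 in the first case and 0.08 in the second. Among chosen genes with a mean of at least 10 in each window, these median differences were 0.22 and −0.01. Relative to the library that chose, the median difference of the UV+ mean was −0.35 and −0.28 over all chosen genes. A comparison of UV+ with the UV− values that made the choice therefore runs low by construction. With both UV− libraries as the base, the median log2 change of the ratio was −0.02 in the members, against 0.57 in the other genes of that length and 0.38 in all genes. That contrast is given as a description with no test.

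A ratio above 1 in UV+ was tested gene by gene (limma, Benjamini-Hochberg over 4208 genes, adjusted p under 0.05). It was called in 71 members, or 16.6%, with a background of 3.52% over all genes and 0.703% in the other genes of that length. The median UV+ log2 ratio was 0.54 in the members and −1.19 over all genes. A ratio below 1 was called in 1 member, CDC42EP1, a Cdc42 effector that binds septins, with a background of 41.2%; its downstream windows held 4 and 0 reads in UV+, and the call was lost without UV+ replicate 2 (adjusted p = 0.237), UV− replicate 1 (0.0514) or UV− replicate 2 (0.0521). The number of calls rested strongly on single libraries, with 12 without UV+ replicate 2 (background 0.856%) and 49 without UV+ replicate 1 (3.28%). There were 47 each without UV− replicate 1 (2.16%) or UV− replicate 2 (2.23%). The tests used 1 spread for both conditions, while the median SD between libraries of the log2 ratio was 0.45 in UV+ and 0.37 in UV− over the 1538 genes with a mean of at least 10 in each window. With the spread of the UV+ libraries alone, 49 members were called (background 2.47%). In all 4 fits with a library left out 7 members were called, and DESeq2 called 41 of the 71 (background 1.95%). Among the 255 members with 10 reads in both windows in both conditions, 40 were called (15.7%, beside 4.32% of all genes of that kind). The 7 were chosen after their values were seen and are described next, with other members named by fixed rules.

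Among these 7, DVL2, an adaptor of Wnt signaling, had 71.6 and 196 normalized reads downstream and 11.4 and 12.6 upstream in the 2 UV+ libraries, against 86.3 and 68.1 downstream and 15.3 and 17.2 upstream in the 2 UV− libraries. Downstream RNA lay above upstream RNA in every library, by the most in UV+ replicate 2 (log2 3.21 ± 0.44 (SE), adjusted p = 0.00014). HSPB8, a small heat shock protein, had 279 and 162 downstream and 25.2 and 15.5 upstream in UV+, against 178 and 114 downstream and 12.5 and 13.1 upstream in UV−, with no overlap of the windows in any library (log2 3.36 ± 0.36 (SE), adjusted p = 2.09e-05). In HSPB8, 397 nt of the downstream window lay in an exon of another gene on the same strand, which has no symbol in the annotation. HNRNPA1, an RNA-binding protein of splicing and RNA export, had 148 and 127 downstream and 41.5 and 20.3 upstream in UV+, against 198 and 202 downstream and 44.5 and 50.9 upstream in UV− (log2 2.20 ± 0.33 (SE), adjusted p = 0.000258). HNRNPA1 has processed copies in the genome, so that its assigned reads are uncertain.

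RPS27L, a ribosomal protein-like gene that p53 activates, had 472 and 425 downstream and 116 and 149.9 upstream in UV+, against 73.8 and 64.8 downstream and 33.4 and 32.8 upstream in UV− (log2 1.75 ± 0.29 (SE), adjusted p = 0.000543). Both windows were higher in UV+ with no overlap. HNRNPR, another RNA-binding protein, had 58.5 and 33.9 downstream and 11.4 and 0.967 upstream in UV+, against 62.6 and 63.2 downstream and 15.3 and 13.1 upstream in UV− (log2 3.21 ± 0.55 (SE), adjusted p = 0.000673). The upstream window of UV+ replicate 2 held a single read. HEATR3, a protein of ribosome biogenesis, had 19.5 and 20.3 downstream and 1.63 and 2.90 upstream in UV+, against 73.8 and 58.2 downstream and 6.96 and 8.20 upstream in UV− (log2 2.71 ± 0.56 (SE), adjusted p = 0.00234), and EIF3A, the largest subunit of a translation initiation complex, had 42.3 and 29.02 downstream and 0 and 0 upstream in UV+, against 43.1 and 44.3 downstream and 5.57 and 9.02 upstream in UV−. With no upstream read of EIF3A in UV+, no fold is given for it. HEATR3 and EIF3A held under 10 upstream reads in UV+ and were in the table only through those in UV−.

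Which annotation lies in the downstream window separated the members into 6 classes, taken in a fixed order. At least 250 nt of it lay in an exon of the same gene, a longer annotated 3′ end, in 192 members (44.9%), against 25.8% of the other genes of that length. An exon of another gene on the same strand took up at least 250 nt in 3 members (0.701%, against 0.703%). A partial exon was found in 78 (18.2%, against 23.5%), of which 56 held an overhang of 1 to 20 nt only. An intron was found in 38 (8.88%, against 8.77%), features on the other strand only in 37 (8.64%, against 7.59%) and no annotation in 80 (18.7%, against 33.6%). Read the other way, 21.6% of all such genes with a longer annotated end were members, against 8.1% of those with nothing annotated. The class with a longer end was the one in which members stood furthest above the other genes, with no test since the rule chose on these reads.

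**Figure D2:**
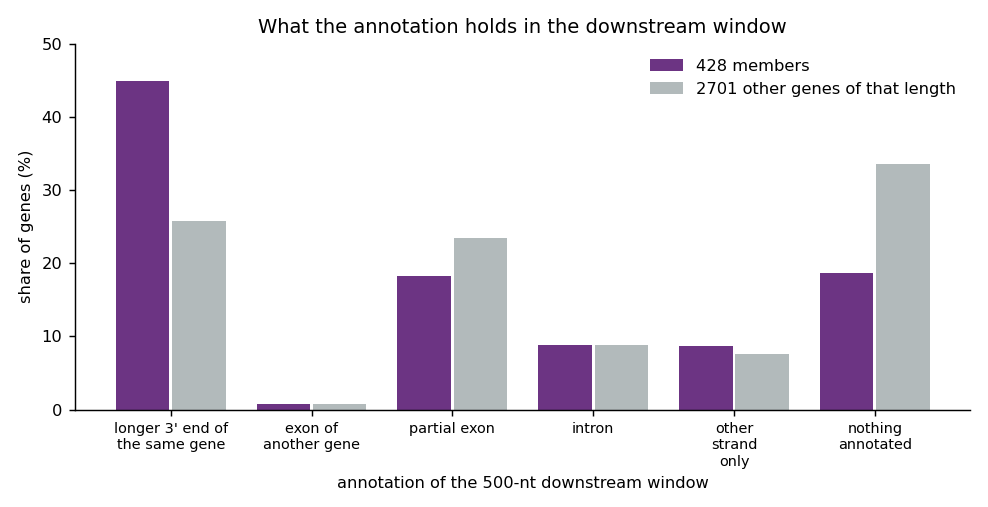
Share of genes (vertical axis, percent) by the annotation of the 500-nt downstream window, for the 428 members and the 2701 other protein-coding genes of that length. A longer 3′ end of the same gene covers 44.9% of the members and 25.8% of the others, and windows with nothing annotated cover 18.7% and 33.6%.

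The excess did not hang on the threshold of 250 nt. With at least 1 nt of exon of the gene the shares were 62.4% of members and 49% of the others, with all 500 nt 41.1% and 22.8%, and with any transcript of the gene ending at least 100 nt farther on 56.1% and 39.1%. Among the 259 members with more downstream RNA in each UV− library 49.4% had a longer end, and among the 122 with at least 2 times as much 46.7%.

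In 187 of the 192 genes a last exon of the gene ran on for at least 100 nt past the table's end, by a median of 2581 nt (quartiles 1215.5 and 4401.5), against 1933 nt in the other genes of that class. Within those 187, the last 50 nt before the table's end held AATAAA in 38.5% and neither hexamer in 49.2%, and the last 50 nt before the longer end held AATAAA in 62% and neither in 23.5%. In the other genes the table's end held AATAAA in 53.6% and neither in 32.8%. Their longer end held AATAAA in 51.2% and neither in 32.6%, so the 2 ends differed little there. In 58 members the table's end had neither hexamer and the longer end had AATAAA, as in ASXL2 and ZNF134 above, while MMACHC had AATAAA more than 30 nt before the table's end.

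The best covered members with a longer end were largely genes in which both windows were well filled. ERGIC2, a protein of the compartment between endoplasmic reticulum and Golgi, had 307 and 215 normalized reads downstream and 123 and 104 upstream in the 2 UV+ libraries, against 419 and 282 downstream and 159 and 142 upstream in the 2 UV− libraries. The downstream window was above the upstream one in every library (log2 1.18 ± 0.25 (SE), adjusted p = 0.00259), though the call was lost without UV+ replicate 1 (adjusted p = 0.0722) or 2 (0.0518). CSNK1A1, a casein kinase of the Wnt pathway, had 181 and 189.6 downstream and 102 and 96.7 upstream in UV+, against 326 and 254 downstream and 209 and 186 upstream in UV− (log2 0.89 ± 0.25 (SE), adjusted p = 0.0128). Its call was lost without UV+ replicate 1 (adjusted p = 0.0721) or 2 (0.121), and its window also lay in an exon of another gene.

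HAVCR1, a receptor for phosphatidylserine, had 262 and 293 downstream and 189 and 269 upstream in UV+, against 441 and 510.2 downstream and 303 and 400.3 upstream in UV−. Its UV+ ratio was not called (log2 0.29 ± 0.22 (SE), adjusted p = 0.301). HACD2, an enzyme of very long fatty acid elongation, had 309.8 and 167 downstream and 204 and 320.2 upstream in UV+, against 501 and 454 downstream and 347 and 313 upstream in UV−. The 2 UV+ libraries of HACD2 went opposite ways (log2 −0.17 ± 0.31 (SE), adjusted p = 0.692). TAF1D, a subunit of the RNA polymerase I factor SL1, had 268 and 285 downstream and 219 and 175 upstream in UV+, against 262 and 243 downstream and 241 and 191 upstream in UV− (log2 0.50 ± 0.24 (SE), adjusted p = 0.112).

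The upstream window held under 250 nt of exon of the gene in 30 of the 428 members (7.01%). That share was 3.22% in the other genes of that length and 9.16% in all genes with a position. A total of 173 members had no same-strand exon over 20 nt in the downstream window and did not lie in an intron there. Of these, 41 had at least 250 nt of exon on the other strand, and 7 more had under 250 nt of exon of the gene in the upstream window, where the table's end falls in a stretch the annotation treats as intron or leaves empty. Neither held for the remaining 125. In 67 of them downstream exceeded upstream in each UV− library, in 45 each window had a mean of at least 10, and in 37 downstream exceeded upstream in all 4 libraries. AATAAA or ATTAAA lay in the last 50 nt in 96 of the 125. The UV+ ratio was called above 1 in 16 of them (12.8%, beside 16.6% of all members), among them CAPRIN1, CHCHD2, CRNKL1, PRICKLE3 and HNRNPA3. Several of the 16 held under 10 upstream reads in UV+ and were in the table only through those in UV−. Examples, with their upstream reads in UV+ replicates 1 and 2, are CAPRIN1 (7 and 2), STX17 (4 and 0) and NUDCD1 (0 and 0).

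CHCHD2, a protein of the mitochondrial intermembrane space that also acts in the nucleus, had 176 and 205 downstream and 90.3 and 89.96 upstream in UV+, against 58.4 and 38.6 downstream and 38.96 and 56.6 upstream in UV−. Only in UV+ did the windows separate, with a UV+ ratio called above 1 (log2 1.07 ± 0.35 (SE), adjusted p = 0.0286). CAPRIN1, an RNA-binding protein of stress granules, had 32.5 and 19.3 downstream and 5.69 and 1.93 upstream in UV+, against 33.4 and 21.3 downstream and 9.74 and 8.20 upstream in UV− (log2 2.56 ± 0.57 (SE), adjusted p = 0.00347), and was picked from the 16 after its values were seen. CRNKL1, a spliceosome component, had 73.2 and 63.8 downstream and 34.2 and 21.3 upstream in UV+, against 80.7 and 91.1 downstream and 45.9 and 28.7 upstream in UV− (log2 1.31 ± 0.38 (SE), adjusted p = 0.0165). These 3 have no annotated exon on either strand in the downstream window. All 3 calls were lost without UV+ replicate 2 (limma, adjusted p = 0.232 for CHCHD2, 0.0558 for CAPRIN1 and 0.157 for CRNKL1). Those of CHCHD2 (0.148) and CRNKL1 (0.0705) were also lost without UV+ replicate 1.

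**Figure D3:**
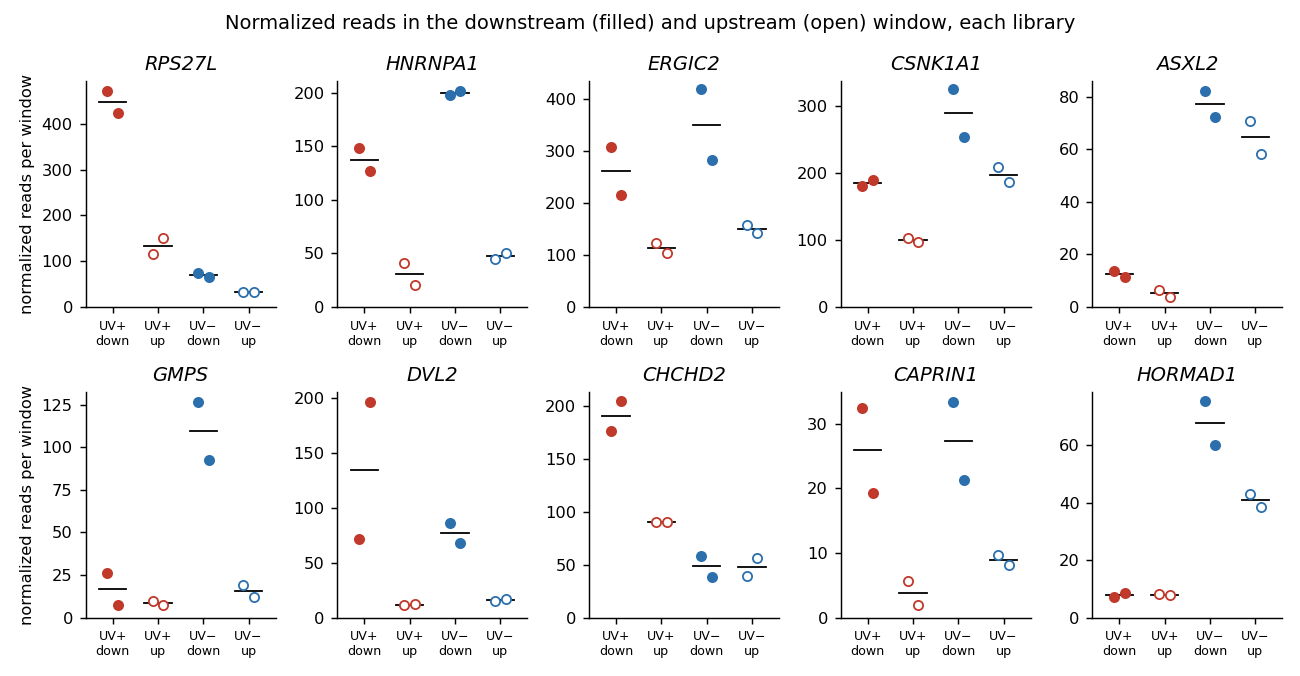
Normalized reads (vertical axis, linear from 0) of 10 members in the downstream window (filled points) and the upstream window (open points), UV+ in red left of UV− in blue, 1 point per library and a bar at the mean. In RPS27L all UV+ values lie above all UV− values, while in ASXL2 and HORMAD1 all UV+ values lie below the UV− values of both windows.

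An exon on the other strand was present in at least 250 nt of the window in 76 members (17.8%), against 12.7% of the other genes. The libraries were made to keep the strand. In 150 cases the downstream window of a gene shared at least 250 nt with the upstream window of a partner on the opposite strand. Genes that meet in this way were counted once from each side. The downstream reads were a median of 24.9% of the partner's upstream reads and as few as 0.844%. That median includes cases with the less abundant gene as partner (PRDX1 with MMACHC, 473%). In 3 of the 13 cases in which the downstream window was a member's, its reads were under 10% of the partner's. These were MMACHC with PRDX1 (4.6%), WDR38 with RPL35 (8.96%) and TXLNG with RBBP7 (3.03%). Counts this small beside an abundant partner cannot be told apart from a low rate of reads assigned to the wrong strand.

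UV+ replicate 2 stood apart in these 76 members. Their downstream sum in UV+ replicate 2 was 1.50 times that in replicate 1, and 55 of the 76 were higher in replicate 2, with a median log2 difference of 0.44. In the 333 members without any exon on the other strand the sum was 0.925 times that of replicate 1 and the median difference −0.12. In the other genes of that length with such an exon the sum was 1.17 times as high, against 0.958 in those without. The upstream windows of the 76 members showed no such difference between the UV+ libraries, at 1.02 times, and in UV− their downstream sum in replicate 2 was 0.867 times that in replicate 1. The UV+ ratio was called above 1 in 17 of the 76 (22.4%), with 2 calls without UV+ replicate 2 and 13 without UV+ replicate 1, against 54 of the other 352 members (15.3%), with 10 and 36. The part of reads from the other strand in these values was not tested.

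The members this touches include several with high ratios. MMACHC, an enzyme of vitamin B12 metabolism, had 42.3 and 117 downstream and 1.63 and 6.77 upstream in UV+, against 48.7 and 43.5 downstream and 1.39 and 9.84 upstream in UV−, and its downstream reads were 2.36% and 7.66% of those of PRDX1 in UV+, against 5.50% and 3.46% in UV−. AIMP2, a scaffold of the aminoacyl-tRNA synthetase complex, had 99.2 and 202 downstream and 55.3 and 72.6 upstream in UV+, against 181 and 153 downstream and 62.6 and 76.3 upstream in UV− (log2 1.15 ± 0.31 (SE), adjusted p = 0.0113), with 500 nt of EIF2AK1 on the other strand. PRICKLE3, a planar polarity protein, had 70.7 and 227 downstream and 26.8 and 47.4 upstream in UV+, against 77.9 and 71.4 downstream and 16.7 and 23.8 upstream in UV− (log2 1.80 ± 0.39 (SE), adjusted p = 0.0028), with 221 nt of PLP2 there, fewer than in the 76. In DVL2, with 425 nt of ACADVL, and in both of these, UV+ replicate 2 was the highest of the 4 libraries downstream. Without it the calls of AIMP2 (adjusted p = 0.167) and PRICKLE3 (0.0902) were lost. AP3M1, a subunit of a vesicle adaptor complex, lies against VCL for 500 nt and had 29.3 and 40.6 downstream and 8.94 and 6.77 upstream in UV+, against 62.6 and 81.2 downstream and 1.39 and 3.28 upstream in UV−.

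The summed reads of both windows were compared between conditions to see whether the amount of RNA from these gene ends changed. The rule set how UV− reads divide between the windows and not their sum. The sum was higher in UV+ in 55 members, or 12.9% (limma with Benjamini-Hochberg adjustment over all genes, adjusted p under 0.05; background 18%), and lower in 93, or 21.7% (background 23.9%). Both shares were near or below the background. These counts include members that entered the table through 1 condition only, which favors a call in the direction of that condition. Of the 67 that held 10 reads in both windows in UV+ alone, 26 were higher and 0 lower, and of the 99 that did so in UV− alone, 0 were higher and 38 lower. Among the 255 with 10 reads in both windows in both conditions, 29 were higher (11.4%, beside 18.5% of all genes of that kind) and 55 lower (21.6%, beside 20.3%). The median log2 change was −0.32 in the members, against −0.14 in the other genes of that length and −0.11 over all genes. Without UV− replicate 1, 30 were higher (background 10.7%) and 26 lower (10.2%), and without UV− replicate 2, 29 (11.2%) and 38 (10.9%). Without UV+ replicate 1 they numbered 50 (14.4%) and 106 (24%), and without UV+ replicate 2, 38 (13.6%) and 88 (22.1%). As these are bulk libraries, fewer cells that express a gene and less RNA per cell cannot be told apart.

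Members with a longer annotated 3′ end were lower in UV+ in 61 of 192 (31.8%) and higher in 14 (7.29%), with a median log2 change of −0.71. The other genes with a longer end were lower in 28.4% and higher in 11.6%, with a median of −0.33, so that the share called lower was close to theirs. With 10 reads in both windows in both conditions, 38 of 129 such members were lower (29.5%, against 23.6% of such other genes) and 12 higher (9.3%, against 14.4%), with a median of −0.55, against −0.17. With nothing annotated, 14 of 80 members were higher (17.5%, against 17% of the other genes) and 13 lower (16.2%, against 23.2%), with a median of −0.18. With a partial exon, 14 of 78 were higher (17.9%, against 16.9%) and 11 lower (14.1%, against 20.3%), with a median of −0.02. In introns 7 of 38 were higher (18.4%, against 14.8%) and 4 lower (10.5%, against 18.6%), with a median of −0.11. With features on the other strand only, 6 of 37 were higher (16.2%, against 16.6%) and 4 lower (10.8%, against 11.7%), with a median of 0.16. Gene length moved with these changes in members and other genes alike. In genes of up to 20000 nt, 40 of 159 members were higher (25.2%, against 26.8% of the others) and 7 lower (4.4%, against 6.64%), with a median of 0.45, against 0.39 in the others. Between 20000 and 50000 nt, 12 of 144 were higher (8.33%, against 8.98%) and 27 lower (18.8%, against 20.8%), with medians of −0.37 and −0.26. Above 50000 nt, 3 of 125 were higher (2.4%, against 1.54%) and 59 lower (47.2%, against 57.7%), with medians of −1.22 and −1.39. In none of the 3 ranges did the members' shares exceed those of the others by more than 1 percentage point. Within the longest range, the median was −1.60 in members with a longer end and −1.05 in the rest, and in the middle range −0.68 and −0.10. The part of gene length in the difference between classes was not tested beyond these values.

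**Figure D4:**
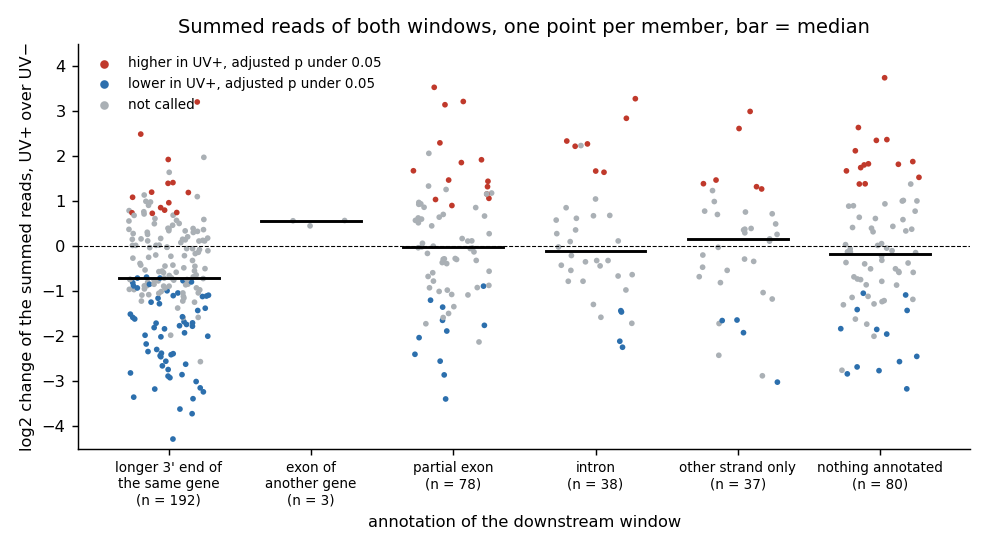
The log2 change of the summed reads of both windows, UV+ over UV− (vertical axis), with 1 point per member by the annotation of its downstream window, and a bar at the median. Called members are red when higher and blue when lower in UV+; the median is −0.71 with a longer 3′ end and −0.18 with nothing annotated.

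The 5 members that rose with the smallest p were RPS27L, TNFRSF10A, RPL27A, TRIM32 and CHCHD2. Summed over both windows, RPS27L had 588 and 575 in the UV+ libraries, against 107 and 97.6 in the UV− libraries (log2 2.50 ± 0.19 (SE), adjusted p = 3.53e-05). TNFRSF10A, a death receptor for TRAIL, had 1112 and 1007 in the UV+ libraries, against 298 and 258 in the UV− libraries (log2 1.93 ± 0.18 (SE), adjusted p = 9.4e-05). In both genes the 2 UV+ libraries lay far above the UV− libraries. RPL27A, a protein of the large ribosomal subunit, had 188 and 182 in the UV+ libraries, against 36.2 and 38.6 in the UV− libraries (log2 2.28 ± 0.24 (SE), adjusted p = 0.000163). Ribosomal protein genes share sequence with many processed copies, so its reads are uncertain. TRIM32, an E3 ubiquitin ligase, had 227 and 196 in the UV+ libraries, against 68.2 and 50.9 in the UV− libraries (log2 1.82 ± 0.24 (SE), adjusted p = 0.000473) and CHCHD2 267 and 295 in the UV+ libraries, against 97.4 and 95.2 in the UV− libraries (log2 1.53 ± 0.20 (SE), adjusted p = 0.000469).

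The UV+ ratio of TNFRSF10A was called too (log2 0.73 ± 0.25 (SE), adjusted p = 0.0328), with 672 and 647 downstream and 439.9 and 359.9 upstream in UV+, against 159 and 168 downstream and 139 and 89.4 upstream in UV−. That call was lost without UV+ replicate 1 (adjusted p = 0.157) or 2 (0.293) and with edgeR (0.0582) or DESeq2 (0.182), whereas its summed reads were called in each of these fits. CCNL1, a cyclin that acts in splicing, was higher in UV+ in both windows, with 83.8 and 90.9 downstream and 80.5 and 65.8 upstream in UV+, against 26.4 and 27.9 downstream and 25.05 and 19.7 upstream in UV− (log2 1.68 ± 0.24 (SE), adjusted p = 0.000619 for the sum). Of its upstream window, 100 nt lay in an exon of the gene.

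The 5 that fell with the smallest p were ASXL2, WHSC1L1, MFHAS1, HORMAD1 and GMCL1. ASXL2, a chromatin regulator of the Polycomb system, had 13.8 and 11.6 downstream and 6.51 and 3.87 upstream in UV+, against 82.1 and 72.2 downstream and 70.97 and 58.2 upstream in UV−, and both UV+ libraries lay below both UV− libraries (log2 −2.92 ± 0.30 (SE), adjusted p = 0.000143 for the sum). WHSC1L1, a histone methyltransferase also called NSD3, had a sum of 17.9 and 13.5 in the UV+ libraries, against 119.7 and 124 in the UV− libraries (log2 −2.89 ± 0.31 (SE), adjusted p = 0.000187). With 5 and 0 upstream reads in UV+, WHSC1L1 was in the table only through UV−, the condition in which it was high. MFHAS1, a leucine-rich repeat protein, had 21.96 and 37.7 in the UV+ libraries, against 200.4 and 176 in the UV− libraries (log2 −2.66 ± 0.30 (SE), adjusted p = 0.000242). In these 3 genes the UV+ libraries lay below every UV− library. GMCL1, a relative of the fly germ cell-less gene, had 20.3 and 16.4 in the UV+ libraries, against 107 and 93.5 in the UV− libraries (log2 −2.39 ± 0.31 (SE), adjusted p = 0.000435), and HORMAD1, a protein of meiotic chromosome axes, 15.5 and 16.4 in the UV+ libraries, against 118 and 98.4 in the UV− libraries (log2 −2.68 ± 0.31 (SE), adjusted p = 0.00027). Of the 5, 4 have a longer annotated end, and HORMAD1 has nothing annotated downstream.

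Changes of the ratio itself are a description, since UV− values chose the genes. Among members with a mean of at least 10 in each window, the log2 change was most negative in KIAA1919 (−2.18), GMPS (−2.06), VOPP1 (−1.73), EHD4 (−1.67) and BET1 (−1.65). GMPS, the last enzyme of GMP synthesis, had 26.02 and 7.74 downstream and 9.76 and 7.74 upstream in UV+, against 127 and 92.7 downstream and 19.5 and 12.3 upstream in UV−. Its downstream window was far lower in UV+ and its upstream window less so. Of the upstream window of GMPS, 141 nt lay in an exon of the gene, against 500 nt of its downstream window. BET1, a vesicle fusion protein, had 36.6 and 34.8 downstream and 19.5 and 26.1 upstream in UV+, against 13.9 and 13.9 downstream and 8.35 and 0 upstream in UV−, with 0 upstream reads in UV− replicate 2. Neither window of BET1 held any exon of the gene. With 6 and 0 upstream reads in UV−, BET1 was in the table only through UV+. The change was most positive in HELLS (2.06), ZNF432 (1.86), FAM118B (1.61), ZNF277 (1.45) and DNAJC21 (1.27). HELLS, a chromatin remodeler of DNA methylation, had 22.8 and 45.5 downstream and 21.1 and 0 upstream in UV+, against 104 and 91.1 downstream and 58.4 and 55.8 upstream in UV−, so that its higher ratio came with an upstream count of 0 in UV+ replicate 2. DNAJC21, a chaperone of ribosome biogenesis, had 37.4 and 37.7 downstream and 17.9 and 9.67 upstream in UV+, against 5.57 and 10.7 downstream and 5.57 and 8.20 upstream in UV−.

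By function, the members were spread over many gene groups, whose counts stand beside 18% of all genes with a higher and 23.9% with a lower sum in UV+, and 3.52% with a ratio called above 1. Zinc finger genes made up 26 of 155 such genes in the table and of the same length, and 16 of the 26 had a longer annotated end; 2 were called above 1 in UV+, and summed reads rose in 2 and fell in 3, with a median log2 change of 0.33 (19 and 18 of the 129 other zinc finger genes, median 0.09). ZNF134 had 69.9 and 59.98 downstream and 43.1 and 52.2 upstream in UV+, against 41.7 and 37.7 downstream and 36.2 and 20.5 upstream in UV− (log2 0.73 ± 0.25 (SE), adjusted p = 0.0411 for the sum), and the call was lost without any 1 of the 4 libraries (adjusted p from 0.06 to 0.244). Ubiquitin genes were members in 16 of 84, with 1 ratio call, 2 sums higher and 4 lower and a median of −0.25 (7 and 19 of 68 others, median −0.67), and USP14, a deubiquitinase of the proteasome, had a sum of 58.5 and 30.95 in the UV+ libraries, against 80.7 and 106 in the UV− libraries (log2 −1.10 ± 0.34 (SE), adjusted p = 0.0269, but 0.122 without UV+ replicate 2, and 0.0578 and 0.17 without UV− replicates 1 and 2). Splicing and RNA-binding genes were members in 11 of 77, with ratio calls in HNRNPA1, HNRNPA3, HNRNPR and SNRPG and a median change of the sum of −0.04. Their sums were higher in 2 and lower in 1, against 9 and 8 of 66 others. With 2 upstream reads in each UV− library, SNRPG was in the table only through UV+, and 312 nt of PCYOX1 lie on the other strand.

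Ribosomal protein genes were members in 5 of 42, and all 5 had higher sums in UV+, with a median of 2.28, against 28 of the 37 others, with a median of 1.12 and 0 lower. The 5 include RPS27L, RPS3, which had a single upstream read in UV− and was in the table only through UV+, and RPL7L1, whose call was lost without UV+ replicate 1 (adjusted p = 0.0899), UV+ replicate 2 (0.11) or UV− replicate 2 (0.253) and with DESeq2 (0.0728). RPL23A had 111 and 133 downstream and 56.9 and 55.1 upstream in UV+, against 62.6 and 31.2 downstream and 22.3 and 27.1 upstream in UV− (log2 1.33 ± 0.25 (SE), adjusted p = 0.00299 for the sum), and 500 nt of TLCD1 lie on the other strand. Mitochondrial genes were members in 7 of 83, with 3 ratio calls (CHCHD2, ATP5F1 and MRPS25), 4 higher sums, 0 lower and a median of 1.20, against 1 ratio call, 18 higher and 6 lower sums in 76 others, with a median of 0.36. The ratio calls of ATP5F1 (0.0739 and 0.153) and MRPS25 (0.0562 and 0.184), like that of CHCHD2, were lost without UV+ replicate 1 or 2 (limma, adjusted p), and that of MRPS25 also without UV− replicate 1 (0.0687) or 2 (0.0654). ATP5F1, an ATP synthase subunit, had 60.2 and 47.4 downstream and 23.6 and 12.6 upstream in UV+, against 23.7 and 27.9 downstream and 4.17 and 4.92 upstream in UV− (log2 1.20 ± 0.32 (SE), adjusted p = 0.0136 for the sum, but 0.0754 without UV+ replicate 1 and 0.0794 without UV− replicate 1). With 3 and 6 upstream reads in UV−, ATP5F1 was in the table only through UV+, the condition in which it was high. Of the 7 mitochondrial members, 5 held enough reads for the table in both windows in both conditions. Of these 5, 2 had higher and 0 lower sums, with a median of 0.62. Of 38 other mitochondrial genes of that kind, 8 had higher and 2 lower sums, with a median of 0.31. Genes of vesicle traffic were members in 11 of 60 (1 sum higher, 0 lower, median −0.12, against 4 and 8 of 49 others). Genes with symbols starting SLC, most of them solute carriers, were members in 6 of 47 (3 higher, 1 lower, median 0.55, against 3 and 14 of 41 others). The 3 higher of the 6 include SLC7A6OS, a gene on the strand opposite SLC7A6 (limma, adjusted p = 0.0206 for the sum). DESeq2 did not call that sum (adjusted p = 0.0576), while edgeR did (0.021). The call also did not hold in every fit with 1 library left out. The median over all genes was −0.11, and no list was tested as a group.

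Of the factors that cut and polyadenylate pre-mRNA, 2 of 12 in that length range were members. CSTF2T, a paralog of the cleavage stimulation factor subunit CstF64, had 47.2 and 45.5 downstream and 20.3 and 25.2 upstream in UV+, against 18.1 and 9.84 downstream and 9.74 and 13.9 upstream in UV−, and its summed reads were higher in UV+ (log2 1.39 ± 0.31 (SE), adjusted p = 0.00631). CPSF6, a subunit of cleavage factor I, had 40.7 and 5.80 downstream and 24.4 and 18.4 upstream in UV+, against 47.3 and 41.8 downstream and 15.3 and 30.4 upstream in UV−, with its 2 UV+ libraries far apart downstream and a sum that was not called (log2 −0.74 ± 0.42 (SE), adjusted p = 0.178) but was called lower without UV+ replicate 1 (0.0173). RPS27L, counted above with the ribosomal proteins, was the member among 16 genes of a fixed list of p53 targets. That list does not hold all such targets. Of the other 15 listed genes, 14 had higher sums. Only 4 of these 15 held 10 reads in both windows in both conditions, and all 4 had higher sums. MYC, the growth-promoting transcription factor, was the member among 6 immediate-early and stress genes. MYC had 34.2 and 12.6 downstream and 36.6 and 26.1 upstream in UV+, against 40.4 and 47.6 downstream and 27.8 and 39.4 upstream in UV− (log2 −0.55 ± 0.33 (SE), adjusted p = 0.205 for the sum, and 0.0486 without UV+ replicate 1).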

How the data were processed

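Nuclear RNA of 2 UV+ and 2 UV− A549 libraries was read from the deposited table. The authors' signal values are normalized counts of reads in 500-nt windows on each side of the PAS, scaled by a size factor for each library. Whole reads were recovered from 100% of the values within 1e-06 read. According to the methods and the submitters' processing notes, reads were trimmed with cutadapt, aligned to hg19 with TopHat2, filtered with SAMtools and counted with featureCounts in R 3.4.0, and genes were filtered on their reads. In the table each window held at least 10 reads, summed over the libraries of a condition, in at least 1 condition, though not in the same one for both windows in 57 genes. Tools without a version here had none in the sources used. The authors also deposited log2 fold changes of the windows and of their difference, Wald scores and p-values of their own comparison, which were not used. Names or positions of 3 rows were shifted and 3 symbols had become dates; these stayed in the tests without a name.

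The members and gene lists were chosen with earlier results of these data known. Tests used limma 3.58.1 in R 4.3.3 on log2(value + 1), with a variance trend on the mean log2 level and 1 spread shared by both conditions. The UV+ mean of the downstream/upstream ratio was set against 1, and the summed reads of both windows were compared as UV+ minus UV−, two-sided, with Benjamini-Hochberg adjustment over 4208 genes. Since the pseudocount enters every log2 value, changes of thinly covered genes are understated. Results were also computed with pseudocounts of 0.5 and 5, on genes averaging 10 or more per window, on the recovered reads with edgeR 4.0.16 and with DESeq2 1.42.0, with TMM factors, without the trend, with the replicate number as a block and without each library in turn. Counting only members with 10 reads in both windows in both conditions, the UV+ ratio with the spread of the UV+ libraries alone, splitting partial exons at 20 nt and ranges of gene length were added after the data were seen. The tests were tested on simulated data. With 2 libraries per condition, an exact test cannot fall below 0.3333. Exons came from GENCODE 44 on GRCh37, matched by symbol for 404 members and by position for 22, with 2 unmatched. Classes were assigned in the order given.

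Named genes were the 8 members with the most downstream reads with a longer end and the 8 without a same-strand exon, the 5 with the smallest p for the sum in each direction, the 5 with the largest ratio change in each direction, the 3 on each side of the threshold, and up to 3 of each gene list. Of these, not all are described.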

Additional observations from a re-analysis of the deposited data

How the results depend on the processing

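Of 69 changes of single members run under the alternatives, 64 were called, and 0 of these changed direction. HACD2, whose UV+ ratio was not called (log2 −0.17), had a log2 ratio of 0.60 without UV+ replicate 2 and −0.93 without UV+ replicate 1. Of the 71 members with a UV+ ratio above 1, DESeq2 called 41, and 40 of the 71 were among members with 10 reads in both windows in both conditions. The calls with 1 library left out, given above, were fewer than 71 and were not all among the 71. The 55 members with higher sums became 36 with DESeq2 and 29 to 50 with 1 library left out, and the 93 with lower sums 26 to 106. Of the 55 and 93, 29 and 55 had 10 reads in both windows in both conditions. A fit on fewer libraries has fewer degrees of freedom. The cause of the DESeq2 difference was not tested. DESeq2 called 66 lower sums. On the 207 members averaging 10 or more per window, 48 ratios, 37 higher and 68 lower sums were called. Over all 428, the remaining alternatives gave 49 to 87 ratio calls, 41 to 60 higher and 75 to 108 lower sums. A stricter rule left 259 members (more downstream in each UV− library), 122 (at least 2 times as much), 207 (a mean of at least 10 in each window) or 255 (10 reads in both windows in both conditions), and choosing with UV− replicate 1 or 2 left out gave 424 or 459. Of the 122, 57 had a longer annotated end, beside 192 of all 428.

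Same-numbered libraries of both conditions did not deviate together (correlation 0.04 for the sum and 0.02 for the ratio over 3146 genes), so the numbers do not pair them. With the replicate number as a block, 78 members had a ratio above 1, including the 71, and 57 higher and 100 lower sums were called. Depth limits these results, with a median of 7 to 12 upstream reads per library. Limits of strand, of shared sequence between gene copies and of an annotation that may lack the ends these cells use apply to single genes.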

Other observations

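Other members with a UV+ ratio called above 1 were picked here after their values were seen, for what the genes do. ITGB1, the beta subunit of many integrins, had 136 and 156 downstream and 74 and 55.1 upstream in UV+, against 277 and 262 downstream and 137.8 and 104 upstream in UV−. Its UV+ ratio was called (log2 1.17 ± 0.29 (SE), adjusted p = 0.00605, limma with Benjamini-Hochberg adjustment) and its summed reads were lower in UV+ (log2 −0.89 ± 0.19 (SE), adjusted p = 0.00485). Downstream exceeded upstream in every library, and the ratio call was lost without UV+ replicate 2 (adjusted p = 0.119). HNRNPA3, an RNA-binding protein related to HNRNPA1, had 113 and 131 downstream and 44.7 and 27.1 upstream in UV+, against 45.9 and 56.6 downstream and 36.2 and 28.7 upstream in UV−, with a higher sum in UV+ (log2 0.91 ± 0.22 (SE), adjusted p = 0.00939, but 0.0526 without UV− replicate 1). Its ratio call was lost without UV+ replicate 2 (adjusted p = 0.0895). Its downstream reads were higher in both UV+ libraries than in both UV− libraries, while the upstream ranges overlapped.

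CDK4, the cyclin-dependent kinase of the entry into the cell cycle, had 61.8 and 72.6 downstream and 6.51 and 19.3 upstream in UV+, against 25.05 and 22.1 downstream and 5.57 and 3.28 upstream in UV−, with a higher sum in UV+ (log2 1.47 ± 0.31 (SE), adjusted p = 0.00497, limma with Benjamini-Hochberg adjustment). With 4 upstream reads in each UV− library, CDK4 was in the table only through UV+, the condition in which it was high, and its ratio call was lost without UV+ replicate 1 (adjusted p = 0.0719). TSPAN31 covers 500 nt of its downstream window on the other strand, and the part of TSPAN31 reads in these values was not tested. HSPH1, a large heat shock protein of the cytoplasm, had 43.1 and 38.7 downstream and 9.76 and 7.74 upstream in UV+, against 15.3 and 18.05 downstream and 2.78 and 11.5 upstream in UV−. Its ratio call was lost without UV+ replicate 1 (adjusted p = 0.107) or 2 (0.138). Its sum was higher in UV+ (log2 1.07 ± 0.37 (SE), adjusted p = 0.0416; adjusted p = 0.138, 0.092, 0.266 and 0.0587 without UV+ replicates 1 and 2 and UV− replicates 1 and 2).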
